A study of Homo sapiens with 9 samples.

Results

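The core circadian clock genes CLOCK, ARNTL (also named BMAL1), PER1, PER2, PER3, CRY1, CRY2, NR1D1, NR1D2 and BHLHE40 were examined in the established human line MDA-MB-231, derived from a breast adenocarcinoma. The genes were chosen by name, with earlier results of these data known. All 10 were found among the 24344 genes of the count table by their Ensembl identifiers. The cells had received 1 of 3 injections for 48 h. Compound Kushen Injection (CKI) combines extracts of the herbs Kushen and Baituling, and the Kushen and Baituling injections each hold a single herb. CKI was given at 2.0 mg/mL, stated by the study as total alkaloid, and the single injections were diluted in the same ratio. Each injection had 3 unstranded paired-end RNA-seq libraries. Untreated libraries were not analysed here, so each value compares one injection with another and gives no change from untreated cells.

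The clock is a feedback loop of transcription. The proteins of CLOCK and ARNTL pair and activate genes that carry E-boxes, among them the PER, CRY, NR1D and BHLHE40 genes. The PER and CRY proteins return to the nucleus and inhibit the pair, the NR1D receptors (REV-ERB alpha and beta) repress ARNTL through ROR response elements, and BHLHE40 (DEC1) competes for E-boxes. In tissues and in cultures that share a phase these transcripts peak at different times of the day. All libraries came from a single time point and no synchronisation of the cells was described, so a shift of phase and a change of level cannot be told apart. In RNA from bulk cells, fewer cells expressing a gene and less RNA per cell cannot be told apart either.

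The 9 libraries held 20144628 to 23782071 counts. Levels are in CPM, a gene's counts in proportion to the library total after TMM scaling, and fold changes are log2 values ± SE from the quasi-likelihood test of edgeR, with p-values adjusted by the Benjamini-Hochberg method over the 14195 genes tested. All 6 markers of MDA-MB-231 (VIM, CD44, EGFR, KRT18, CAV1 and AXL) were counted in every library, but their summed level differed, at 2211 to 2256 CPM in CKI, 2723 to 2758 CPM in Kushen and 4981 to 5100.1 CPM in Baituling. In both comparisons with Baituling all 6 passed the test, 5 of them higher in Baituling and EGFR lower. Of the markers that should be low in this line, the summed level of ESR1, PGR, GATA3, CDH1 and EPCAM was 16.4 to 18.9 CPM in CKI and Kushen and 36.3 to 40.7 CPM in Baituling. Hepatocyte markers summed to 0.548 to 1.29 CPM, and the 4 blood and endothelial markers in the table to 0.110 to 1.54 CPM. Basal keratinocyte markers (KRT5, KRT14 and TP63) summed to 9.49 CPM in Baituling replicate 2 and 10.8 CPM in Baituling replicate 3, against 0.363 to 0.732 CPM in the other 7 libraries. KRT5 had 93 and 124 counts in these 2 libraries and 0 in every other one. The part of the keratin RNA and of the marker shifts in the differences from Baituling was not tested, so members are also given without Baituling replicates 2 and 3, a choice made after seeing the data. That leaves a single Baituling library, which is assumed to vary like the libraries of CKI and Kushen, so these values carry no replicate check within Baituling.

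The clock genes did not move as a block. ARNTL, PER1, NR1D1, NR1D2 and BHLHE40 were higher in CKI than in either single injection, in comparisons that share the CKI libraries, although the call of BHLHE40 against Baituling was lost when some libraries were left out. PER2 and PER3 were highest in Baituling. CLOCK, CRY1 and CRY2 were lowest in Baituling, and CKI and Kushen did not pass the test for these 3. NR1D1 and BHLHE40 were lowest in Kushen, whereas ARNTL and NR1D2 were lowest in Baituling. The plot of CPM by library shows these orders.

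**Figure D1:**
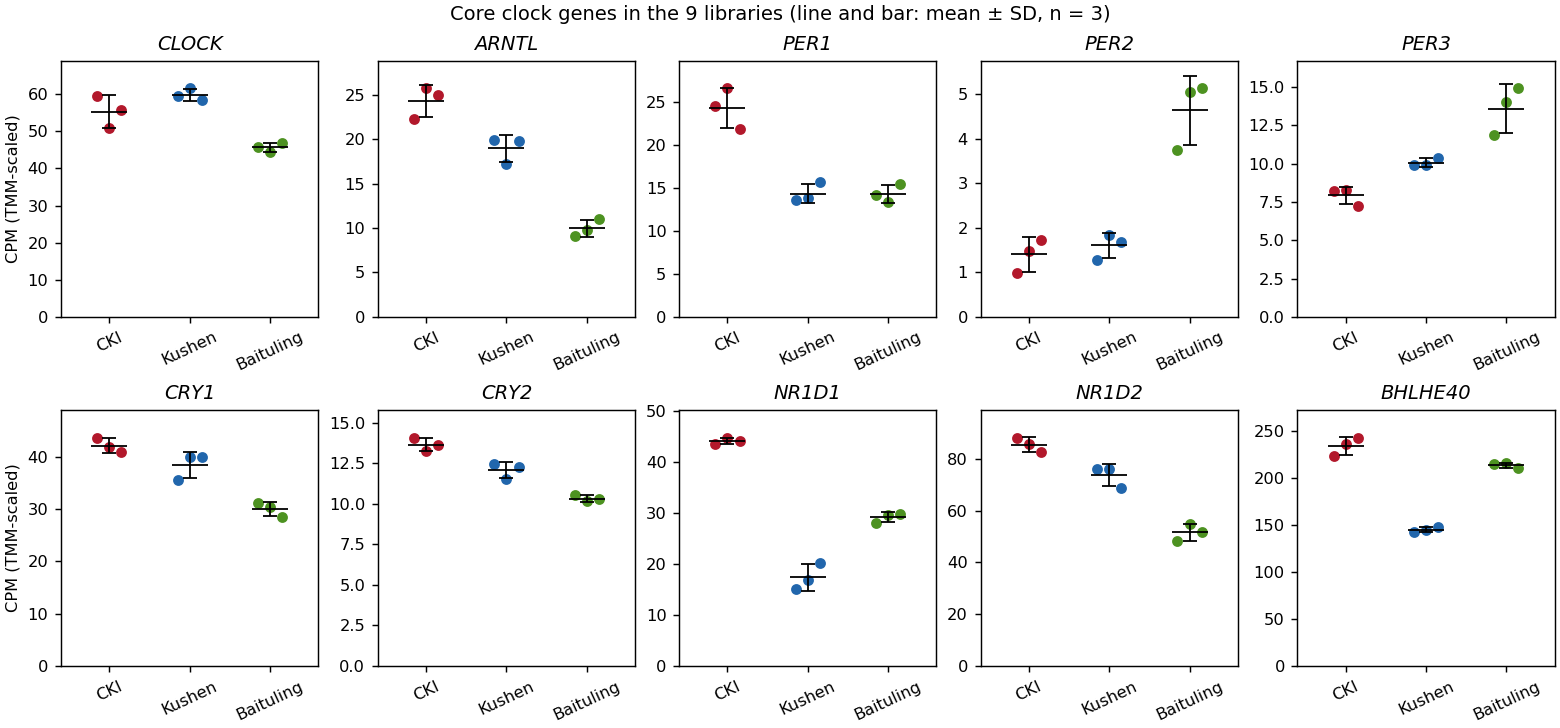
Expression of the 10 clock genes in the 9 libraries, in TMM-scaled CPM on a linear axis that starts at 0, with points for single libraries and a line and bar for the mean ± SD of 3 libraries. NR1D1 lies at 43.5 to 44.8 CPM in CKI and 15.1 to 20.3 CPM in Kushen, while PER2 is below 2 CPM in CKI and Kushen and at 3.76 to 5.13 CPM in Baituling.

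The promoters of the members were searched for the elements through which this loop acts. RefSeq start sites gave 15 windows of 250 bases before a start for the 10 members, placed on build GRCh37 by an exact match. The E-box CACGTG was found in 3 of the 15 windows, those of PER1, NR1D2 and BHLHE40, and in 6.34% of 35116 windows of the same length. The variant CACGTT, searched on both strands like the others and not overlapping CACGTG, was found in 5 of the 15 windows and in 4.55% of all windows. These 5 belong to CLOCK, PER2, CRY1, CRY2 and NR1D1. The match of PER2 lies in annotated exon, which takes up 216 of the 250 bases of that window. The CRY2 window with the variant begins in annotated exon, which takes up 126 of its 250 bases. The D-box (TTATGTAA or TTACGTAA) was found in 2 of the 15 windows, those of PER3 and NR1D2, and in 0.94% of all windows. A short ROR element (TAGGTCA or TGGGTCA) was found in 3 of the 15 windows, those of CLOCK, CRY2 and NR1D2, and in 4.82% of all windows. No member window held the cyclic AMP response element TGACGTCA, found in 1.65% of windows, and those of ARNTL held none of these letters. A match is a description of the sequence and no evidence that a factor bound there.

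Every member but ARNTL had a window with a match, whichever injection it was highest in. The windows of PER1, NR1D1, NR1D2 and BHLHE40 are printed as examples of the E-box and its variant in genes that passed as higher in CKI than in both single injections. They are shown 5′ to 3′ on the strand of the gene and end at the RefSeq start, except that the window of PER1 is shown only up to its first annotated exon base. Capitals mark the matches. The window of PER1 (chr17:8055754-8055972, minus strand, GRCh37) has an E-box 173 to 168 bases before the start, that of NR1D1 (chr17:38256843-38257092, minus strand) has a CACGTT on the other strand at 168 to 163 bases and that of BHLHE40 (chr3:5020872-5021121, plus strand) has an E-box at 245 to 240 bases. The second window of NR1D2 (chr3:23987362-23987611, plus strand) has E-boxes at 155 to 150 and 105 to 100 bases, with a D-box before and a ROR element between them. The windows of PER1 and NR1D2 lie inside the annotated genes, downstream of other starts.
PER1: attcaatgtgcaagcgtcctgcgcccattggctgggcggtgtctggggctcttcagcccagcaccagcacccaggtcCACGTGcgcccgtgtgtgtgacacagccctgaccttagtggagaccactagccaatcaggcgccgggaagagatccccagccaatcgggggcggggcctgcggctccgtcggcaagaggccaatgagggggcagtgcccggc
NR1D1: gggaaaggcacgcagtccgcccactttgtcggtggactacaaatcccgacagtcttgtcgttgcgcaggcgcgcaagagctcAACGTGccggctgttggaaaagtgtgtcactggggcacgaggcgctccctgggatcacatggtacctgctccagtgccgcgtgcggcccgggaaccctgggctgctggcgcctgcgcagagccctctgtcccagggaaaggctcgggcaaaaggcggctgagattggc
NR1D2: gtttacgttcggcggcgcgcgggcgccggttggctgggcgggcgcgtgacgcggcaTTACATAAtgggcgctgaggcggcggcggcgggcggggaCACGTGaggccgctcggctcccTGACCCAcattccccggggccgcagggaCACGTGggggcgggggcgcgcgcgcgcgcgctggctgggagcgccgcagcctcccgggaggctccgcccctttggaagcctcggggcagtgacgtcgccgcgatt
BHLHE40: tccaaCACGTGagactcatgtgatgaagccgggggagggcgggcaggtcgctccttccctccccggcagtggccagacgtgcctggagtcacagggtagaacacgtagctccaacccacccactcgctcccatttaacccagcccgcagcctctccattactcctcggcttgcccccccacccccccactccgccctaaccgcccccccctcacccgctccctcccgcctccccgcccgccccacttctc

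CKI was compared with Kushen to see what Baituling adds within the combination. Among the 10 members, 5 were higher in CKI (ARNTL, PER1, NR1D1, NR1D2 and BHLHE40), 1 was lower (PER3) and 4 did not pass at an adjusted p of 0.05. Of all genes tested, 19.6% were higher and 20.2% lower. The share of higher members was above that of all genes and the share of lower members below it, as counts with no test. Since the members were chosen with earlier results of these data known, this is a description only. Past the log2 fold change of 1 that the study used, 1 member was higher, NR1D1, where 1.7% of all genes were higher and 0.197% lower. The libraries of the groups did not overlap for 8 members and for 49.5% of all genes. The median log2 fold change was 0.19 over the members and 0.01 over all genes, and the median size of the change was 0.28 against 0.17.

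CKI was compared with Baituling to see what Kushen brings to the combination. All 10 members passed, 8 higher and 2 lower (PER2 and PER3), in a comparison where 39.1% of all genes were higher and 37% lower. Past the fold threshold were 1 higher member, ARNTL, and 1 lower member, PER2, against 11.2% of genes higher and 7.91% lower. The groups did not overlap for any of the 10 members, which also held for 78.3% of all genes. The median log2 fold change was 0.45 over the members and 0.03 over all genes, and the median size 0.66 against 0.46. With Baituling replicate 1 as the only Baituling library and the spread taken from CKI and Kushen, 9 members passed, and ARNTL and PER2 were the 2 past the fold threshold.

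The comparison of Kushen with Baituling sets the single herbs side by side. Here 5 members were higher in Kushen (CLOCK, ARNTL, CRY1, CRY2 and NR1D2), 4 were lower (PER2, PER3, NR1D1 and BHLHE40) and PER1 did not pass, beside 35.6% of all genes higher and 36.1% lower. Only PER2, lower, was past the fold threshold, which 8.5% of genes passed as higher and 6.73% as lower. The groups did not overlap for 9 members and for 73.1% of all genes. The median log2 fold change was 0.11 over the members and 0.02 over all genes, and the median size 0.47 against 0.41. Most genes at large were called too in both comparisons with Baituling, which limits what the members' counts show. With Baituling replicate 1 alone and the spread taken from the other groups, 7 members passed and 2, ARNTL and PER2, were past the fold threshold. The plot of fold changes gives the interval of each member.

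**Figure D2:**
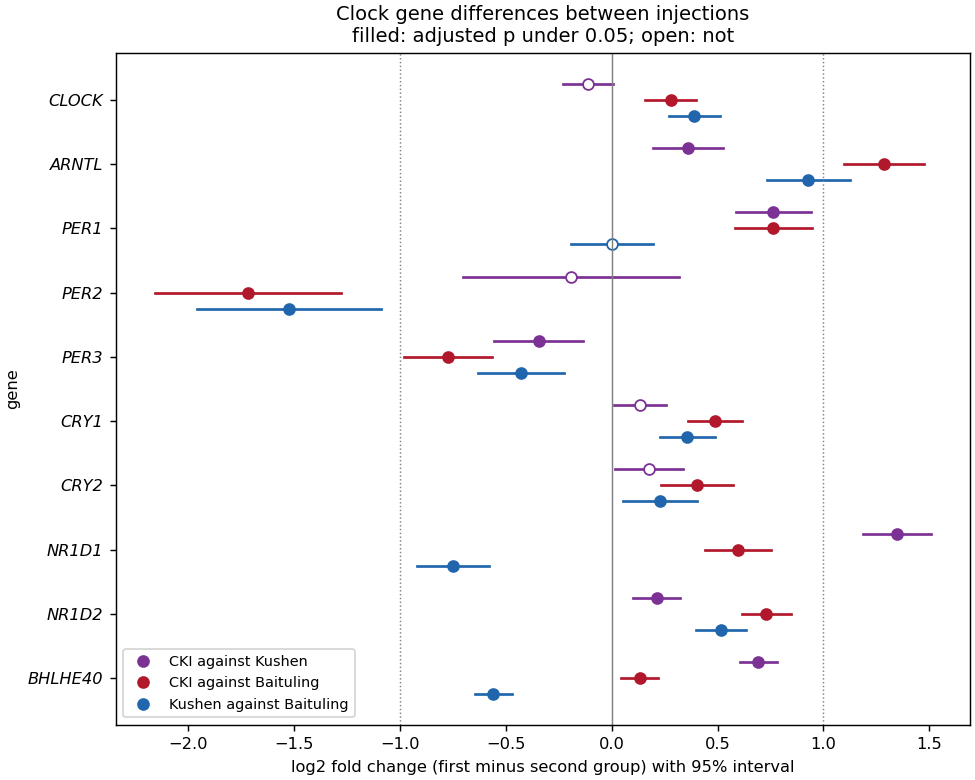
Log2 fold changes of the 10 clock genes in the 3 comparisons, with 95% intervals, from the fit of all 9 libraries. Points are filled where the adjusted p was under 0.05, the solid line marks no difference and dotted lines mark a log2 fold change of 1 either way, which NR1D1 passes in CKI against Kushen (1.35), ARNTL in CKI against Baituling (1.29) and PER2 in both comparisons with Baituling (-1.72 and -1.53).

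The activators were examined first. CLOCK (chromosome 4, 56294070 to 56413076, minus strand, GRCh37) encodes the activator that pairs with ARNTL. Its level was 59.5, 50.8 and 55.7 CPM in the CKI libraries, 59.5, 61.5 and 58.4 CPM in Kushen and 45.7, 44.5 and 46.8 CPM in Baituling. The Baituling libraries were the 3 lowest, and those of CKI and Kushen overlapped. CLOCK was higher in CKI than in Baituling by 0.28 ± 0.06 (edgeR adjusted p 0.000247) and higher in Kushen than in Baituling by 0.39 ± 0.06 (edgeR adjusted p 5.89e-06). Between CKI and Kushen its log2 fold change was -0.11 ± 0.06, with a 95% interval of -0.23 to 0.0042 and an edgeR adjusted p of 0.118, and without CKI replicate 1 it passed at -0.17 with an adjusted p of 0.0357. CLOCK shares 76 exon bases with TMEM165 on the other strand, whose levels were 95.3 CPM in CKI, 105 CPM in Kushen and 179 CPM in Baituling. TMEM165 was thus highest in Baituling, where CLOCK was lowest.

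ARNTL (chromosome 11, 13298199 to 13408813, plus strand) varied more than its partner. Its level was 22.3, 25.7 and 25.04 CPM in CKI, 19.9, 17.3 and 19.8 CPM in Kushen and 9.12, 9.82 and 11.04 CPM in Baituling. No library of one group reached the range of another, and CKI was highest and Baituling lowest. The fold change was 0.36 ± 0.08 in CKI against Kushen (edgeR adjusted p 0.0014) and 1.29 ± 0.09 in CKI against Baituling (edgeR adjusted p 1.14e-10), a 2.44-fold difference. In Kushen against Baituling it was 0.93 ± 0.09 (edgeR adjusted p 2.97e-08), just inside the fold threshold, and 1.05 without Baituling replicates 2 and 3. ARNTL shares 421 exon bases with a long noncoding RNA on the other strand that is not analysed here.

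The PER genes encode the inhibitors of the pair and went apart from each other. PER1 (chromosome 17, 8043790 to 8059824, minus strand) had 24.4, 26.5 and 21.8 CPM in CKI, 13.5, 13.8 and 15.6 CPM in Kushen and 14.2, 13.3 and 15.4 CPM in Baituling. The CKI libraries lay above all others, and the single injections overlapped. PER1 was higher in CKI by 0.76 ± 0.08 against Kushen (edgeR adjusted p 1e-06) and by 0.76 ± 0.09 against Baituling (edgeR adjusted p 1.42e-07), 1.70-fold in both. Between Kushen and Baituling its log2 fold change was -0.000138 ± 0.09, with an interval of -0.19 to 0.19 and an edgeR adjusted p of 0.999, but with library totals in place of TMM it was 0.21 with an adjusted p of 0.0477. Its E-box window is shown above. PER1 shares 30 exon bases with another gene on the same strand that is not analysed here.

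PER2 (chromosome 2, 239152685 to 239198743, minus strand) was the member with the fewest counts. It had 0.980, 1.49 and 1.74 CPM in CKI, 1.29, 1.85 and 1.69 CPM in Kushen and 3.76, 5.04 and 5.13 CPM in Baituling, on 25 to 44, 32 to 45 and 77 to 93 counts per library. Every Baituling library was above all others, and CKI and Kushen overlapped. PER2 was lower than in Baituling, with a log2 fold change of -1.72 ± 0.21 in CKI (edgeR adjusted p 4.18e-07) and -1.53 ± 0.21 in Kushen (edgeR adjusted p 1.99e-06). Baituling was thus 3.29-fold above CKI and 2.88-fold above Kushen. Against Baituling replicate 1 alone, with 77 counts, the values were -1.43 and -1.23, and the spread then came from the other groups. In CKI against Kushen PER2 did not pass, with a log2 fold change of -0.19 ± 0.24, a wide interval of -0.70 to 0.32 and an edgeR adjusted p of 0.562. Without CKI replicate 1 its sign turned, to 0.01. PER2 shares 188 exon bases with a long noncoding RNA on the other strand that is not analysed here.

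PER3 (chromosome 1, 7844351 to 7905237, plus strand) stepped down from Baituling to CKI. Its level was 8.24, 8.26 and 7.27 CPM in CKI, 9.90, 9.93 and 10.4 CPM in Kushen and 11.9, 14.0 and 14.9 CPM in Baituling. None of the groups overlapped. It was lower in CKI, at -0.35 ± 0.10 against Kushen (edgeR adjusted p 0.00984) and -0.78 ± 0.10 against Baituling (edgeR adjusted p 7.28e-07). Kushen was below Baituling, at -0.43 ± 0.10 (edgeR adjusted p 0.000548), but without Baituling replicates 2 and 3, at -0.24 with an adjusted p of 0.118. PER3 shares 868 exon bases with UTS2 on the other strand, which had at most 1 count in any library. PER3 also shares 482 exon bases with a long noncoding RNA on that strand that is not analysed here.

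The CRY genes encode the partners of PER in inhibition, and their patterns over the 9 libraries were the closest of any pair of members. CRY1 (chromosome 12, 107385142 to 107487327, minus strand) had 43.7, 41.8 and 40.9 CPM in CKI, 35.5, 39.9 and 39.9 CPM in Kushen and 31.1, 30.4 and 28.5 CPM in Baituling. CRY2 (chromosome 11, 45868669 to 45904799, plus strand) had 14.1, 13.3 and 13.6 CPM in CKI, 12.5, 11.5 and 12.2 CPM in Kushen and 10.5, 10.1 and 10.3 CPM in Baituling. For both genes the libraries of the groups did not overlap, with CKI highest and Baituling lowest. CRY1 shares 94 exon bases with a long noncoding RNA on the other strand that is not analysed here.

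Against Baituling CRY1 was higher in CKI by 0.49 ± 0.06 (edgeR adjusted p 6.18e-07) and CRY2 by 0.40 ± 0.08 (edgeR adjusted p 0.000169). In Kushen against Baituling CRY1 was higher by 0.36 ± 0.06 (edgeR adjusted p 4.14e-05). CRY2 was higher by 0.23 ± 0.08 (edgeR adjusted p 0.0199), a call that was lost in DESeq2 (adjusted p 0.0611) and without Baituling replicates 2 and 3 (0.19, adjusted p 0.191). Neither passed in CKI against Kushen. The difference was 0.13 ± 0.06 for CRY1 (95% interval 0.0089 to 0.25, edgeR adjusted p 0.0818) and 0.18 ± 0.08 for CRY2 (0.016 to 0.34, edgeR adjusted p 0.0743). With library totals in place of TMM both passed, at 0.21 and 0.25.

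NR1D1 and NR1D2 encode paralogous heme-binding nuclear receptors that repress ARNTL, and the single injections ordered them in opposite ways. NR1D1 (chromosome 17, 38249046 to 38256842, minus strand) had 43.5, 44.8 and 44.2 CPM in CKI, 15.1, 16.9 and 20.3 CPM in Kushen and 28.1, 29.7 and 29.9 CPM in Baituling. The 3 groups were apart without overlap, with Kushen lowest and Baituling between. NR1D1 in CKI exceeded Kushen by 1.35 ± 0.08 (edgeR adjusted p 1.76e-10), a 2.54-fold difference and the largest of the 10 members in that comparison. Against Baituling CKI was higher by 0.60 ± 0.07 (edgeR adjusted p 5e-07), and Kushen was lower than Baituling, at -0.75 ± 0.08 (edgeR adjusted p 9.54e-08). NR1D1 shares 473 exon bases with THRA on the other strand, and reads of the pair there cannot be told apart without strand. THRA itself averaged 59.7, 60.7 and 59.5 CPM, with log2 fold changes of -0.02 to 0.03 that did not pass.

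NR1D2 (chromosome 3, 23986777 to 24022108, plus strand) had 88.2, 85.6 and 82.6 CPM in CKI, 76.0, 76.3 and 68.9 CPM in Kushen and 48.3, 54.8 and 51.6 CPM in Baituling. Again no groups overlapped, but Baituling was the lowest. It was higher in CKI by 0.21 ± 0.05 against Kushen (edgeR adjusted p 0.00365) and by 0.73 ± 0.06 against Baituling (edgeR adjusted p 4.29e-10). Kushen was higher than Baituling by 0.52 ± 0.06 (edgeR adjusted p 9.74e-08), where NR1D1 was lower. Of the windows shown above, that of NR1D2 held E-boxes, a D-box and a ROR element. In that of NR1D1 the variant was the only match, and sequence outside the windows was not searched. Whether these matches bear on the levels of the 2 genes was not tested.

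BHLHE40 (chromosome 3, 5021122 to 5027008, plus strand) encodes a basic helix-loop-helix repressor that is also induced by many other signals. It was the most abundant member, at 223, 236 and 243 CPM in CKI, 143, 145 and 147 CPM in Kushen and 214, 215 and 210.5 CPM in Baituling. The Kushen libraries were far below the rest, and CKI was above Baituling without overlap by a small margin. BHLHE40 in CKI exceeded Kushen by 0.69 ± 0.04 (edgeR adjusted p 3.52e-10) and lower in Kushen than in Baituling, at -0.56 ± 0.04 (edgeR adjusted p 4.66e-10). In CKI against Baituling the difference was 0.13 ± 0.04 (edgeR adjusted p 0.00728). This last call was lost without CKI replicate 3 (0.10, adjusted p 0.0537) and without Baituling replicates 2 and 3 (0.11, adjusted p 0.126). BHLHE40 shares 451 exon bases with BHLHE40-AS1, which averaged 1.36 CPM or less in each group.

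Levels were compared between members per kb of annotated exon, since long genes collect more reads. In CKI BHLHE40 led with 66.5 CPM per kb, followed by NR1D1 with 16.8, NR1D2 with 14.8, CRY1 with 8.81, CLOCK with 4.80, ARNTL with 3.51, PER1 with 3.47, CRY2 with 2.20, PER3 with 0.975 and PER2 with 0.198. Only ARNTL and PER1 overlapped among these neighbours. In Kushen NR1D1 dropped to 6.62 CPM per kb, behind NR1D2 with 12.7 and beside CRY1 with 8.04. In Baituling ARNTL dropped to 1.44 CPM per kb, behind CRY2 with 1.66 and PER3 with 1.67, so that PER2 with 0.655 was the only member below it.

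**Figure D3:**
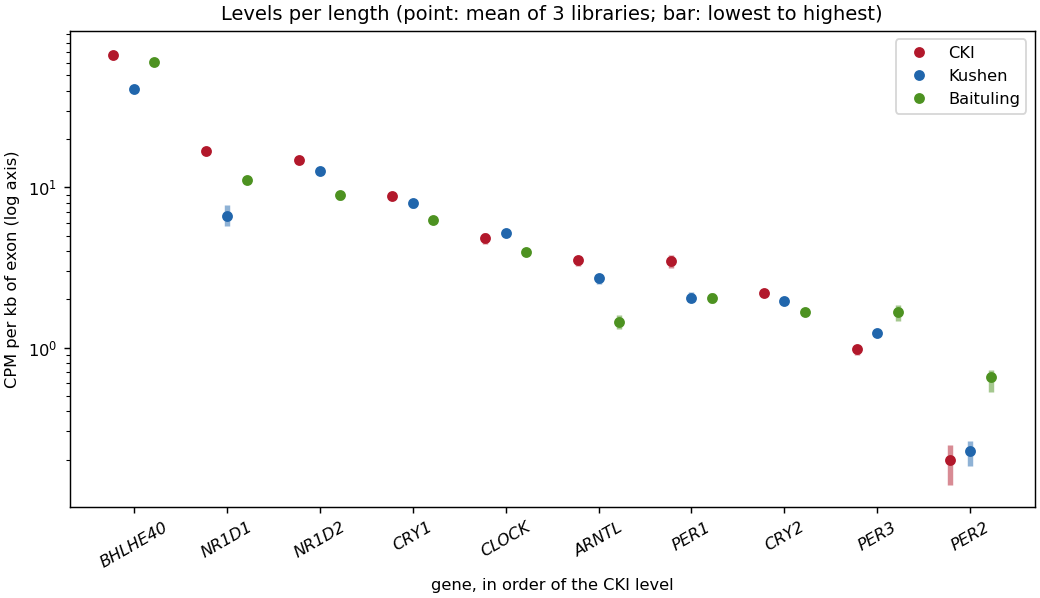
Level of each clock gene per kb of annotated exon in the 3 groups, as CPM per kb on a log axis, with points for the mean of 3 libraries and bars from the lowest to the highest library. The genes span from 66.5 for BHLHE40 to 0.198 for PER2 in CKI, and the largest shifts between groups are those of NR1D1, ARNTL and PER2.

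Ratios of members were also described within each library. The ratio of NR1D1 to ARNTL per kb was 4.59 to 5.15 among CKI libraries, against 2.00 to 2.70 in Kushen and 7.14 to 8.12 in Baituling, without overlap. CKI had the most of both transcripts, but its ratio lay between those of the single injections. The ratio of PER1 to PER2 per kb was 12.7 to 25.2 among CKI libraries. It was 7.56 to 10.6 in Kushen and only 2.67 to 3.81 in Baituling. These groups did not overlap either, and PER2 had only 25 to 44 counts per CKI library. Both ratios were formed after the values were seen and were not tested.

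The likeness of patterns was measured as the root-mean-square distance between centred log2 CPM over the 9 libraries. CRY1 and CRY2 were 0.0925 apart, CLOCK and CRY2 0.132, and ARNTL and PER2 were farthest at 1.31. NR1D1 was closest to BHLHE40 (0.292) and farther from its paralog NR1D2 (0.587). The search covered 11965 genes whose mean log2 CPM was 1 or more. Those nearest to NR1D1 were RRAD (0.107) and RASD1 (0.113), and those nearest to PER1 were GPRC5B (0.0853) and FRMD8 (0.0929). GLRB (0.0940) was among the nearest to ARNTL, and those nearest to PER2 were TRPV4 (0.142) and ZNF219 (0.192). The other members had their nearest genes at 0.0265 to 0.0740. These were OGFRL1 and HINT3 for CLOCK, B4GALT6 and DOCK1 for PER3, RUSC2 and CLPB for CRY1, TDRKH and MAPK8 for CRY2, ATP13A3 and GDAP2 for NR1D2, and NFKBIB and ZFAND2A for BHLHE40. With 3 groups many genes share an order, and these distances are a description of the same libraries.

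Paralogs and loop partners of the members were taken from a written list of 9 genes, all of which were tested. In CKI against Kushen 1 was higher (BHLHE41, 0.27), 3 were lower (TIMELESS and RORB among them) and 5 did not pass. The numbers higher, lower and not passed were 3, 5 and 1 in CKI against Baituling and 3, 3 and 3 in Kushen against Baituling. Among all genes tested, 19.6% were higher and 20.2% lower in CKI against Kushen. The shares were 39.1% and 37% in CKI against Baituling and 35.6% and 36.1% in Kushen against Baituling. Counts of this list and of those below were not tested against these shares. NPAS2, a paralog of CLOCK that also pairs with ARNTL, averaged 107 CPM in CKI, 105 CPM in Kushen and 164 CPM in Baituling, and was lower than in Baituling, at -0.62 ± 0.05 in CKI (edgeR adjusted p 4.4e-10). CLOCK itself was lowest in Baituling. TIMELESS, which acts with TIPIN at the replication fork, averaged 34.6, 43.2 and 45.6 CPM in the same order, and TIPIN 10.4, 9.85 and 15.1 CPM.

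The ROR receptors activate ARNTL at the elements that the NR1D receptors repress. RORA was higher than in Baituling by 0.87 ± 0.23 in CKI and by 0.75 ± 0.24 in Kushen. RORB was higher than in Baituling by 0.67 ± 0.21 in CKI and by 1.11 ± 0.20 in Kushen, on 24 to 81 counts per library. CIART, an inhibitor of the CLOCK and ARNTL pair, had 1.89 CPM in Baituling and was lower, at -1.17 ± 0.25 in CKI and -1.19 ± 0.25 in Kushen, the same direction as PER2. ARNTL2, the paralog of ARNTL, had a log2 fold change of -0.14 ± 0.06 in CKI against Baituling (edgeR adjusted p 0.0492). Apart from NPAS2, TIMELESS and TIPIN, these genes were named after their values were seen.

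Kinases and ubiquitin ligases act on the stability of clock proteins, PER and CRY among them. The list also holds USP2 and USP7, which remove ubiquitin. Of 19 written, 18 were tested, and FBXL21 was not analysed here. In CKI against Kushen 5 were higher (CSNK1A1, CSNK1E, CSNK2A2, DYRK1A and GSK3A, by 0.17 to 0.30), 2 were lower (FBXW11 at -0.12 and USP7 at -0.14) and 11 did not pass. In CKI against Baituling 9 were higher, 4 were lower (CSNK1D, CSNK2A1, GSK3A and USP7, with -0.12 to -0.28) and 5 did not pass. In Kushen against Baituling 6 were higher, 5 were lower (CSNK1D, CSNK1E, CSNK2A1, DYRK1A and GSK3A) and 7 did not pass. Among all genes tested, 19.6% were higher and 20.2% lower in CKI against Kushen. The shares were 39.1% and 37% in CKI against Baituling and 35.6% and 36.1% in Kushen against Baituling. FBXW11 and BTRC, paralogous F-box proteins that target PER for degradation, were both lower in Baituling. FBXW11 averaged 139, 151 and 81.6 CPM in CKI, Kushen and Baituling, and BTRC 38.6, 37.7 and 26.9 CPM. GSK3A averaged 71.6, 58.9 and 86.7 CPM. Most changes on this list were small, with a median size of 0.11 in CKI against Kushen.

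Cofactors of the loop were 16 genes, all tested. In CKI against Kushen 3 were higher (CREBBP, EP300 and SIRT1, by 0.27 to 0.53), 3 were lower (KAT2B, NONO and TBL1XR1, with -0.13 to -0.19) and 10 did not pass. The numbers higher, lower and not passed were 7, 6 and 3 in CKI against Baituling and 6, 8 and 2 in Kushen against Baituling. Among all genes tested, 19.6% were higher and 20.2% lower in CKI against Kushen. The shares were 39.1% and 37% in CKI against Baituling and 35.6% and 36.1% in Kushen against Baituling. SFPQ and PSPC1 encode RNA-binding proteins of paraspeckles that are found with PER. SFPQ averaged 131, 132 and 322 CPM in CKI, Kushen and Baituling, and was lower than in Baituling, at -1.30 ± 0.04 in CKI (edgeR adjusted p 5.25e-16) and -1.28 ± 0.04 in Kushen (edgeR adjusted p 1.1e-15). PSPC1 averaged 42.7, 44.6 and 67.8 CPM, and WDR5, a subunit of histone methyltransferase complexes, 66.2, 70.0 and 102 CPM. All 3 were highest in Baituling.

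Output genes are driven by the clock through E-boxes, D-boxes or ROR elements, and by other signals too. Of 12 written, 11 were tested, and HLF was removed by the filter on low counts. Of these 7 were higher in CKI than in Kushen and the other 4 did not pass, with a median log2 fold change of 0.25 against 0.01 over all genes. Among the 7 were NOCT (1.22), CDKN1A (0.72), KLF10 (0.72), NFIL3 (0.60), TSC22D3 (0.43) and TEF (0.25). In CKI against Baituling 6 were higher, 3 were lower (DBP, TSC22D3 and WEE1) and 2 did not pass. In Kushen against Baituling 3 were higher (KLF9 and NFIL3 among them), 5 were lower (DBP, KLF10, NOCT, TSC22D3 and WEE1) and 3 did not pass. Among all genes tested, 19.6% were higher and 20.2% lower in CKI against Kushen. The shares were 39.1% and 37% in CKI against Baituling and 35.6% and 36.1% in Kushen against Baituling. WEE1, the kinase that holds back entry into mitosis, averaged 30.4, 31.4 and 59.6 CPM in CKI, Kushen and Baituling and was lower than in Baituling, at -0.97 ± 0.05 in CKI. DBP, a D-box activator under direct control of CLOCK and ARNTL, averaged 14.7, 17.5 and 24.4 CPM, so it was highest in Baituling, as PER2 and PER3 were.

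Glucocorticoid-responsive genes were listed because PER1 is also induced by glucocorticoids. Of 8 written, 7 were tested and ZBTB16 was removed by the filter. Of the 7, TSC22D3 and KLF9 were also on the output list. Between CKI and Kushen 4 were higher in CKI (DUSP1, SGK1, TSC22D3 and ERRFI1), 1 was lower (FKBP5, -0.19) and 2 did not pass. In CKI against Baituling 3 were higher (DUSP1, KLF9 and NR3C1) and 4 were lower (SGK1, TSC22D3, ERRFI1 and FKBP5). In Kushen against Baituling 2 were higher (KLF9 and NR3C1), 4 were lower (SGK1, DUSP1, TSC22D3 and ERRFI1) and 1 did not pass. Among all genes tested, 19.6% were higher and 20.2% lower in CKI against Kushen. The shares were 39.1% and 37% in CKI against Baituling and 35.6% and 36.1% in Kushen against Baituling. DUSP1, a phosphatase of MAP kinases, averaged 259, 64.8 and 147 CPM in CKI, Kushen and Baituling, the order of NR1D1 and BHLHE40. SGK1, a kinase that regulates ion transport, averaged 18.3, 8.62 and 48.4 CPM and TSC22D3 41.6, 30.8 and 67.0 CPM. Both were thus highest in Baituling and lowest in Kushen, so the genes on this list had no single order. PER1 was highest in CKI, and its levels in Kushen and Baituling overlapped. A part of glucocorticoid signalling in the level of PER1 was not tested.

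**Figure D4:**
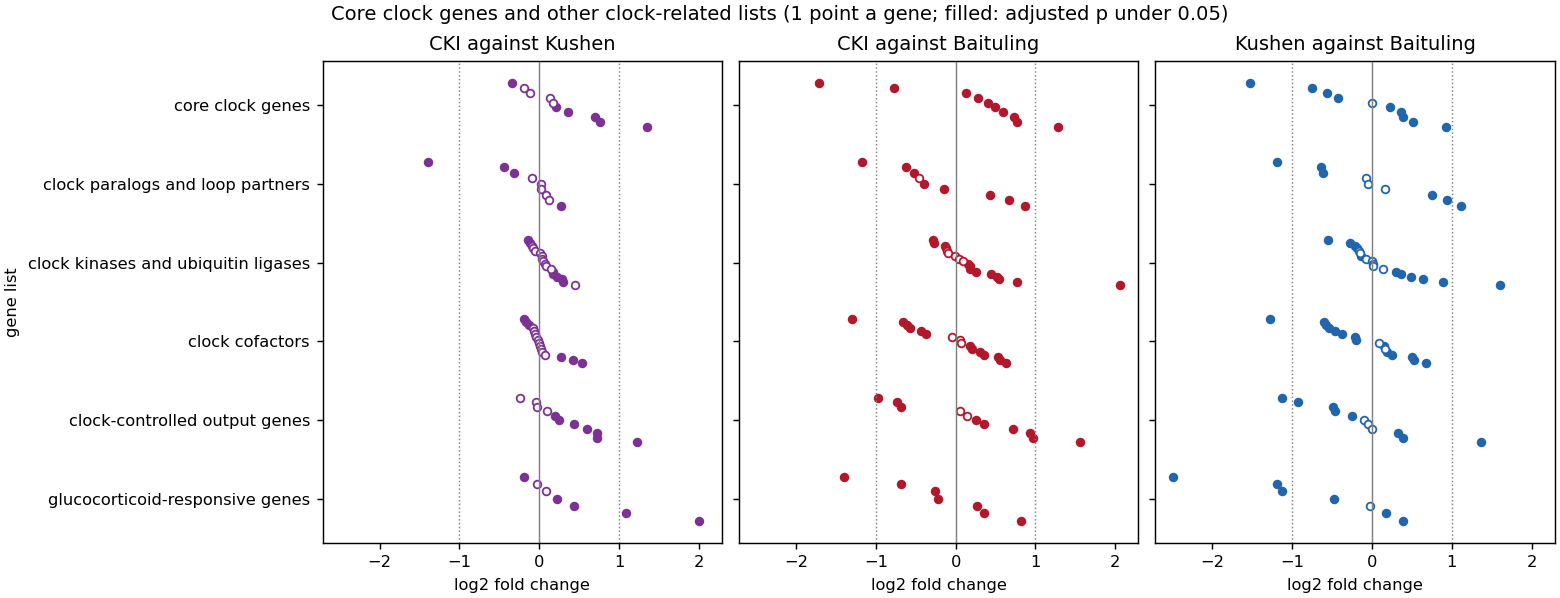
Log2 fold changes of the 10 core clock genes and of the 5 other clock-related lists in the 3 comparisons, with 1 point per gene tested, filled where the adjusted p was under 0.05, a solid line at no difference and dotted lines at a log2 fold change of 1 either way. Each list holds genes on both sides of the solid line in the comparisons with Baituling.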

How the data were processed

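The members and all gene lists were chosen with earlier results of these data known. The authors trimmed reads (Trim Galore 0.3.7), aligned them to hg19 (STAR 2.5.3a) and deposited raw counts per gene. The counting program and annotation are not given in the sources used here. Of 24566 rows, 222 repeated an Ensembl gene and were dropped. Names and positions came from GENCODE 44 on GRCh37, and promoters from RefSeq. Genes were filtered with filterByExpr (minimum count 10, total 15), scaled by TMM and tested two-sided with glmQLFTest in edgeR 4.0.16 (R 4.3.3) in a single fit of all 9 libraries with group as the only term. DESeq2 1.42.0 was an alternative. Promoter motifs were exact matches on both strands. The labels do not say that replicates were separate cultures, so p-values measure only the spread between these libraries, which may be technical. The test was checked on simulated counts. The text names all members, up to 3 genes of each other list by smallest adjusted p, and the 2 nearest patterns of each member; other genes were named after their values were seen. A few items that these rules select are not reported here.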

Additional observations from a re-analysis of the deposited data

How the results depend on the processing

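The same-numbered libraries did not deviate together (correlations of -0.301 to 0.270, 1 of 9 pairs over 0.1, and 0 of the libraries correlated best with their own number in both other groups), and a replicate block left 6, 10 and 9 members passing in CKI against Kushen, CKI against Baituling and Kushen against Baituling, the same numbers as without it. Over the fold changes of the members and all alternatives, 517 values kept direction and side of the threshold, 9 fell short of it, 3 passed it and 11 changed sign. Library totals in place of TMM moved the median of all genes (log2) by 0.0752, 0.287 and 0.212 in the same order, and gave 4 members past the fold threshold in CKI against Baituling, and 2 between Kushen and Baituling. The latter number was 1 to 2 when single libraries were left out and 2 without Baituling replicates 2 and 3, where the lone Baituling library is assumed to vary like the other groups. The sign changes concerned PER1 in Kushen against Baituling, which was 0.21 under library totals, 0.069 with the upper quartile, 0.033 where every library had 10 counts or more, 0.018 with only the groups compared, 0.012 with the rows as deposited, 0.0074 without Baituling replicates 2 and 3 and -0.053 to 0.052 leaving out single libraries, and PER2 in CKI against Kushen, which was -0.38 to 0.010 leaving out single libraries. Among single members, PER3 in Kushen against Baituling was -0.22 (adjusted p 0.0558) under library totals, and CRY2 had adjusted p-values of 0.0505 to 0.065 in that comparison without Kushen replicate 1, Baituling replicate 2 or Baituling replicate 3. The cause was not tested. Counts limited PER2, CIART, USP2 and BHLHE40-AS1 most.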
